A study of Mus musculus with 6 samples.

Results

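The genes described here encode AP-1, a family of transcription factors. All 8 chosen by gene symbol, Fos, Fosb, Fosl1, Fosl2, Jun, Junb, Jund and Atf3, were among the 17419 genes of the table, and all 8 passed the filter on low counts. RNA was sequenced in bulk from fibroblasts of the enthesis, the attachment of tendon or ligament to bone, in SKG mice, a strain with a mutated Zap70 gene that is prone to autoimmune arthritis. The tested samples were 3 labelled diseased, whose titles carry NTS, and they were set against 3 labelled un-diseased, whose titles carry UN. All 6 came from the same strain, as fibroblasts of the tendon enthesis. How disease was brought about, the age of the mice, whether cells were cultured and whether samples came from separate animals are not given in the sources used here, so each p-value reflects no more than the spread among the 6 samples, and that spread may be technical.

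AP-1 is a dimer of leucine zipper proteins. Jun proteins pair with each other or with Fos proteins, Fos proteins need a Jun partner, and the dimers bind the sequence TGACTCA or the related TGACGTCA. Fos, Fosb, Jun, Junb and Atf3 are known as immediate early genes, copied within minutes when growth factors, cytokines, stretch or stress act on a cell through MAP kinases, whereas Fosl1 and Fosl2 follow later and lack the strong activation domain of Fos. In joint fibroblasts AP-1 is known for driving matrix-degrading enzymes and inflammatory mediators.

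Promoter sequences show which of these sites lie close to the start of the genes that the results turn on. The RefSeq promoter table for GRCm38.p6 held 7 of the 8 genes, with no entry for Fosl1. The 250 bases before the start site are printed for Fos (chr12:85473640-85473889, plus strand), Jun (chr4:95052223-95052472, minus strand) and Fosl2 (chr5:32136222-32136471, plus strand), each in the direction of the gene. Capitals mark matches to any of the 6 motifs searched on both strands, which were the AP-1 site TGACTCA, the cAMP response element TGACGTCA, the shorter TGACG contained in it, the AP-1 site variant TGACATCA, the TATA box letters TATAAA, and the CArG box that serum response factor binds.
Fos: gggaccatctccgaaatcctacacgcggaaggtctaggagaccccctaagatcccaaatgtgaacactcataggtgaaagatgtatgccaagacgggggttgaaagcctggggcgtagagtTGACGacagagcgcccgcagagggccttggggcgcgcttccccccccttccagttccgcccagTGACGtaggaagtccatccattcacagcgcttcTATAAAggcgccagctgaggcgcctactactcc
Jun: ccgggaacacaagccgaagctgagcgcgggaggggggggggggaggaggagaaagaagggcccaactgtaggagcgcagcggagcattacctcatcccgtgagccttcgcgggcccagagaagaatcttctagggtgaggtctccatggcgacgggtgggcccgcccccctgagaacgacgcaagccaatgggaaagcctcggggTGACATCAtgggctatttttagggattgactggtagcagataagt
Fosl2: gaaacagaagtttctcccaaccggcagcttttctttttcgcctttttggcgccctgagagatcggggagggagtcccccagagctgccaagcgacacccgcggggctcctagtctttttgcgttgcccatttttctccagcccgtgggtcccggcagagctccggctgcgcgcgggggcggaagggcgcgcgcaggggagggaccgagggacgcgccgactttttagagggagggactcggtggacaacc
The Fos window held TGACG at -129 to -125 and at -66 to -62 from the start site, and TATAAA at -33 to -28. Jun held TGACATCA at -45 to -38, and Fosl2 held none of the 6. TGACG also lay in the windows of Fosb, Junb and Atf3, so 4 of 7 genes had it, against 17.8% of 32851 promoters of the same length. TGACATCA was in 2.93% and TATAAA in 12.4% of all promoters. The full sites TGACTCA (4.46% of promoters) and TGACGTCA (1.55%) and the CArG box (1.47%) were in 0 of the 7 windows. A match is a description of letters and not a bound site. Bases outside these windows were not searched, so an absence here does not mean that a gene lacks the site.

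Fos was the member with the largest positive fold change in diseased samples, and Fosl1 and Fosl2 had the largest negative ones. By edgeR's quasi-likelihood test without pairing, 0 of the 8 members passed at an adjusted p of 0.05, where 3.73% of 13264 tested genes passed, 1.61% as higher and 2.13% as lower. TMM scaling thus put 43% of the calls upward, against 59.1% with upper-quartile factors, which moved the median log2 fold change of all genes to 0.10. Of the 8, 3 had an unadjusted p under 0.05 (Fos, Fosl1 and Fosl2), against 27.8% of all tested genes (13.4% higher and 14.4% lower). DESeq2 called Fos as higher (adjusted p = 0.0357) and Fosl1 as lower (adjusted p = 0.00627), where it called 11.4% of all genes, 4.79% as higher and 6.65% as lower. By limma-voom 0 members passed, where 3.78% of all genes did, 1.62% as higher and 2.16% as lower. The authors' deposited table had a q-value below 0.05 for Fos and Fosl1 and for 7.81% of its 17419 genes. The labels state no pairing between the groups. Samples that share a replicate number deviated together from their group means in these same data, so the same test was also run with the number as a block. The block was thus chosen from the values it was then used to test, and its p-values may be too small. With the block Fos rose and Fosl1 and Fosl2 fell, 3 of 8 members against 23.9% of all genes (10.5% higher and 13.3% lower). The groups did not overlap for the same 3 members, against 31.9% of tested genes (16.5% higher and 15.4% lower). The median log2 fold change was -0.10 over the 8 members and 0.02 over all tested genes.

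**Figure D1:**
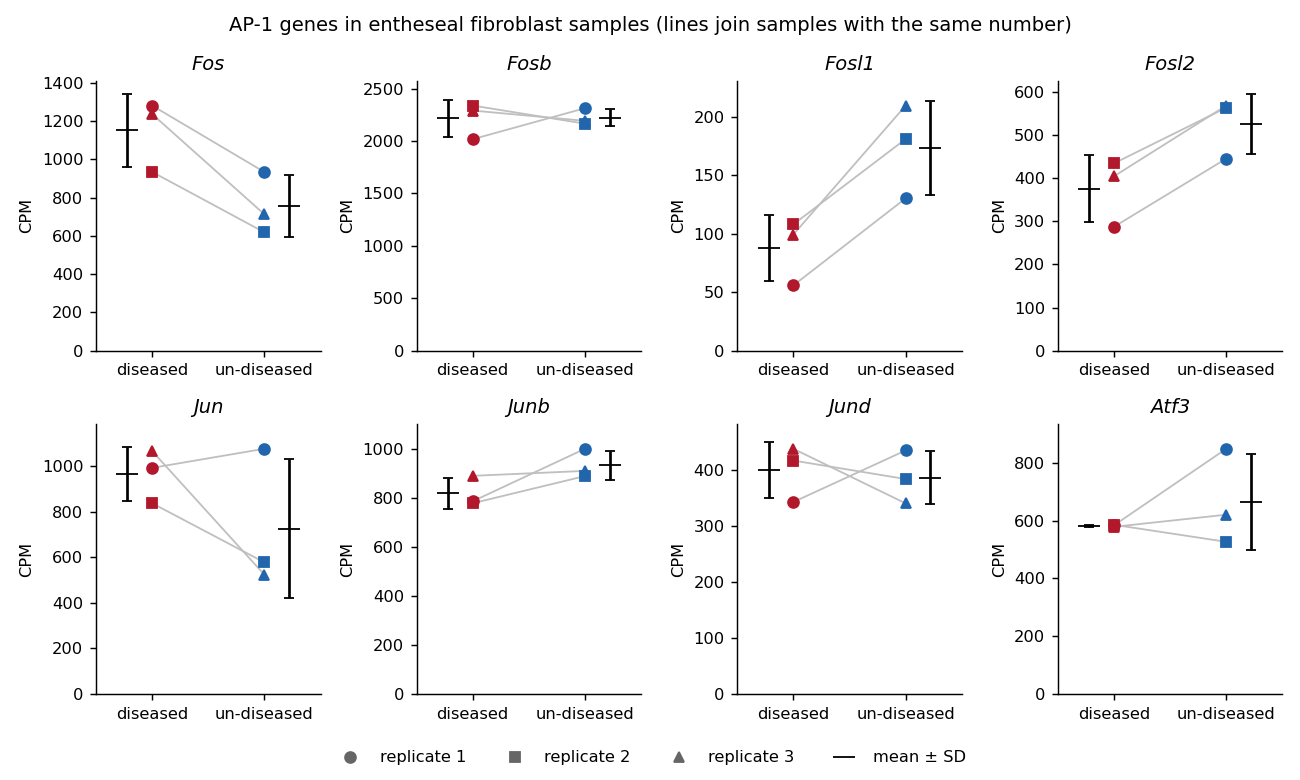
Expression of the 8 AP-1 genes in counts-per-million units (CPM, linear axis from 0) in 3 diseased and 3 un-diseased samples, with lines between samples of the same replicate number and the mean ± SD at the side. All 3 lines slope one way for Fos, Fosl1, Fosl2 and Junb, whereas those of Fosb, Jun, Jund and Atf3 go both ways.

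Among the Fos proteins, Fos itself (gene 14281, GRCm38 chromosome 12, 85473890 to 85477274) is the classic early partner of Jun. It had 1280.4, 934 and 1236 CPM in diseased replicates 1, 2 and 3, against 933, 618 and 712 CPM in un-diseased replicates 1, 2 and 3, where CPM is the count over the TMM-adjusted total, scaled as its name says. The groups just failed to overlap, since the lowest diseased and the highest un-diseased sample differed by about 1 CPM, yet each diseased sample lay above the un-diseased sample of its number. The log2 fold change, diseased over un-diseased, was 0.61 (SE 0.20, adjusted p = 0.121 by edgeR), and 0.62 with the block (SE 0.13, adjusted p = 0.0146), a 1.53-fold rise. Within pairs 1, 2 and 3 the difference was 0.46, 0.60 and 0.79 on the log2 scale. Without pair 3 the test with the block no longer passed, at a log2 fold change of 0.53 and an adjusted p of 0.0774. In the authors' deposited table, whose log2 ratio runs un-diseased over diseased, Fos had -0.60 with a q-value of 0.046.

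Fosb (gene 14282, chromosome 7, 19302696 to 19310118), the early relative of Fos, was the most abundant of the 8 by CPM and also per kilobase. It had 2017, 2338 and 2290.3 CPM in diseased samples, against 2313, 2165 and 2192 CPM in un-diseased ones. These values overlapped throughout, and the log2 fold change was -0.01 (SE 0.15, adjusted p = 0.983 by edgeR), or 0.07 with upper-quartile factors. Its coefficient of variation was 7.82% in diseased and 3.55% in un-diseased samples, against 16.4% and 21.4% for Fos. Fosb was thus steadier between samples than Fos in both groups.

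Fosl1, which encodes Fra-1 and is itself known as an AP-1 target, had the lowest CPM of the 8, while per kilobase Fosl2 was the lower in un-diseased samples. Its values were 55.8, 108 and 99.3 CPM in diseased samples, against 130.3, 181 and 209.6 CPM in un-diseased samples. Every diseased sample was below every un-diseased one. The log2 fold change was -0.99 (SE 0.27, adjusted p = 0.0829 by edgeR) and -1.02 with the block (SE 0.11, adjusted p = 0.00209), which is 0.494-fold, and this blocked call held without each pair in turn. The unblocked test passed without un-diseased replicate 1 (adjusted p = 0.0476, log2 fold change -1.17).

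The Fosl1 counts carry a limit of their own. The gene (14283, chromosome 19, 5447698 to 5455938) overlaps Ccdc85b, a coiled-coil protein gene on the opposite strand, by 2776 bases, from 5453163 to 5455938, and it was the only member that overlapped another RefSeq gene. The deposited estimated counts of both genes were not whole in any of the 6 samples, while those of the other 7 members were whole in all 6. Whether the counting used strand is not given in the sources used here, so reads inside the overlap cannot be assigned to Fosl1 or Ccdc85b here. What part of either gene's counts lies there is not known. Ccdc85b had 28.8, 73.5 and 42.7 CPM in diseased samples, against 44.7, 128 and 104 CPM in un-diseased samples, and its log2 fold change was -0.94 (SE 0.44, adjusted p = 0.211 by edgeR) and -0.91 with the block (adjusted p = 0.00391). With both genes summed as 1 feature, chosen after seeing the data, the log2 fold change was -0.97 (adjusted p = 0.116 by edgeR) and -0.99 with the block (adjusted p = 0.00212).

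Fosl2 (gene 14284, chromosome 5, 32136472 to 32157840) encodes Fra-2, which causes fibrosis when overexpressed in mice. It had 287, 434 and 404 CPM in diseased samples, against 445, 563 and 568 CPM in un-diseased ones. The groups did not overlap, by 1 narrow gap between diseased replicate 2 and un-diseased replicate 1. The log2 fold change was -0.49 (SE 0.19, adjusted p = 0.152 by edgeR) and -0.50 with the block (SE 0.12, adjusted p = 0.0191), and the pairs gave -0.63, -0.38 and -0.49. Leaving out pair 1 (adjusted p = 0.0704) or pair 3 (0.0798) ended the call with the block. The authors' deposited table gave q-values of 0.104 for Fosl2 and 0.00793 for Fosl1.

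Of the Jun proteins, Jun (gene 16476, chromosome 4, 95049036 to 95052222) is the strongest activator of the family. It had 992, 837 and 1066 CPM in diseased samples, against 1076, 577 and 523 CPM in un-diseased samples. Un-diseased replicate 1 was the highest of the 6, and the other un-diseased samples were the lowest. The log2 fold change was 0.41 (SE 0.28, adjusted p = 0.361 by edgeR) and 0.48 with the block (adjusted p = 0.123), with -0.12, 0.54 and 1.03 in pairs 1, 2 and 3. Jun passed as higher without un-diseased replicate 1, at a log2 fold change of 0.81 (adjusted p = 0.0438), and with the block without pair 1, at 0.77 (adjusted p = 0.0316). It came to 0.27 without un-diseased replicate 2 (adjusted p = 0.662 by edgeR), 0.22 without un-diseased replicate 3 (0.674) and 0.21 with the block without pair 3 (0.509).

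That library also had the highest level of heat shock genes, which respond to stress and handling. The 13 listed genes summed to 5169 to 7969 CPM in diseased samples, against 12219 CPM in un-diseased replicate 1 and 5782 and 6368 CPM in un-diseased replicates 2 and 3. Their part in the Jun values was not tested. Of the 13 genes, 0 passed by edgeR, where 3.73% of all tested genes did, and 3 fell and 0 rose with the block. The 3 of 13 are close to the 23.9% of all tested genes called with the block in either direction. All 3 fell, however, where 13.3% of all tested genes fell and 10.5% rose. The most abundant, Hspa8, had a log2 fold change of -0.27 (adjusted p = 0.489 by edgeR).

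Junb (gene 16477, chromosome 8, 84976909 to 84978748), a weaker activator that can oppose Jun, had 786, 778 and 889.9 CPM in diseased samples, against 1000.4, 889 and 910.0 CPM in un-diseased samples. The groups overlapped by about 1 CPM, all 3 pairs were below 0, and the log2 fold change was -0.19 (SE 0.13, adjusted p = 0.371 by edgeR). Jund (gene 16478, chromosome 8, 70697739 to 70700616), the Jun gene usually present in resting cells, had 342, 416 and 437 CPM in diseased samples, against 434, 383 and 339.6 CPM in un-diseased ones. Its log2 fold change was 0.05 (SE 0.15, adjusted p = 0.861 by edgeR), with pair differences of both signs.

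Atf3 (gene 11910, chromosome 1, 191170296 to 191183333), a stress-induced repressor that can pair with Jun, had 584, 586 and 579 CPM in diseased samples, against 849.5, 527 and 621 CPM in un-diseased samples. The diseased samples were almost equal and lay inside the un-diseased range, whose top was again replicate 1. The log2 fold change was -0.19 (SE 0.19, adjusted p = 0.519 by edgeR), and 0.02 without un-diseased replicate 1.

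**Figure D2:**
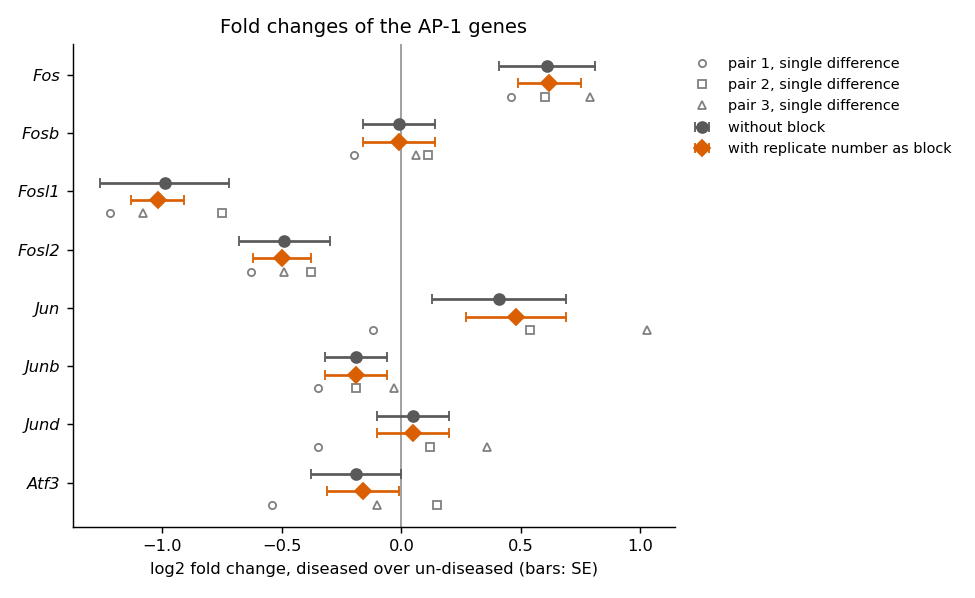
Log2 fold change of each member, diseased over un-diseased, with its SE, without the block (circles) and with the replicate number as a block (diamonds); open symbols are the differences of single pairs. Fos lies above 0 and Fosl1 and Fosl2 below 0 in all 3 pairs, and the block narrows the SE of Fosl1 to 0.11 against 0.27 without it.

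Per kilobase of the principal GENCODE transcript, which allows levels to be compared between genes, the order in diseased samples was Fosb at 586 ± 45.8, Fos at 546 ± 89.4 and Junb at 452 ± 34.6 CPM per kilobase (SD, n = 3). Then came Jun at 303 ± 36.6, Atf3 at 294 ± 1.83, Jund at 239 ± 30.1, Fosl2 at 57.4 ± 11.9 and Fosl1 at 47 ± 15 CPM per kilobase. In un-diseased samples it was Fosb at 588 ± 20.8, Junb at 516 ± 32.6, Fos at 358 ± 76.7, Atf3 at 336 ± 83.7, Jund at 231 ± 28.5, Jun at 227 ± 95.6, Fosl1 at 93.2 ± 21.6 and Fosl2 at 80.4 ± 10.6. Neighbours within a spread of each other were Fosb and Fos, Jun and Atf3, and Fosl2 and Fosl1 in diseased samples. In un-diseased samples they were Fos and Atf3, Jund and Jun, and Fosl1 and Fosl2. Among 12970 genes ranked by mean CPM per kilobase, Fosb stood at 69, Junb at 83, Fos at 95, Atf3 at 163, Jun at 192, Jund at 220, Fosl1 at 727 and Fosl2 at 747. The 8 members took 0.711%, 0.599% and 0.709% of all counts in diseased samples, against 0.771%, 0.564% and 0.558% in un-diseased ones.

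The make-up of Fos family RNA separated the groups for Fos, Fosl1 and Fosl2, the same members whose CPM did not overlap, while its total did not. For Fos and Fosl2 the gap was narrow, between diseased replicate 2 and un-diseased replicate 1, and the Fosl1 share carries the Ccdc85b overlap. These shares are a description, with no test. The 4 Fos genes summed to 1215, 1185 and 1307 CPM per kilobase in diseased samples, against 1192, 1049 and 1117 in un-diseased samples, and these ranges overlapped. Fos made up 50%, 37.4% and 44.9% of that sum in diseased samples, against 37.1%, 27.9% and 30.3% in un-diseased ones. Fosl1 made up 2.47%, 4.88% and 4.08% in diseased samples, against 5.87%, 9.28% and 10.1% in un-diseased ones. Fosl2 made up 3.62%, 5.6% and 4.73% in diseased samples, against 5.72%, 8.21% and 7.78% in un-diseased ones. The 3 Jun genes summed to 950.1, 942 and 1088 CPM per kilobase in diseased samples, against 1151, 902 and 871 in un-diseased ones. Jun supplied 32.7%, 27.9% and 30.7% of it in diseased samples, against 29.3%, 20.1% and 18.8% in un-diseased ones.

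**Figure D3:**
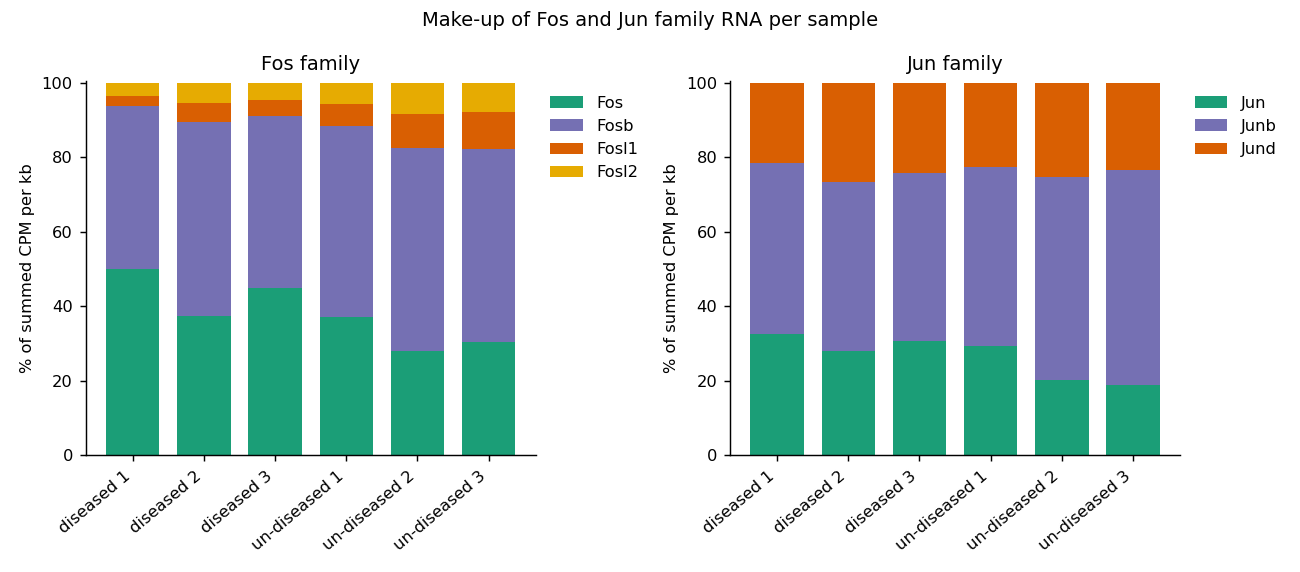
Stacked shares of Fos family and Jun family RNA, in percent of the summed CPM per kilobase, in each of the 6 samples. Fos takes 37.4% to 50% of the Fos family in diseased samples, against 27.9% to 37.1% in un-diseased ones, while Fosb takes 43.9% to 54.6% across all 6.

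Ratios of 2 genes within a sample do not depend on library scaling. Of 4 ratios chosen after seeing the values, Fos over Fosl1 was 20.3, 7.66 and 11 in diseased samples, against 6.33, 3.01 and 3 in un-diseased samples. Fos over Fosl2, which the Ccdc85b overlap does not touch, was 13.8, 6.68 and 9.48 in diseased samples, against 6.49, 3.41 and 3.89 in un-diseased samples. For both, every diseased sample lay above every un-diseased one, though diseased replicate 2 was only slightly above un-diseased replicate 1. The mean log2 difference was 1.63 for Fos over Fosl1 and 1.12 for Fos over Fosl2, each with a two-sided exact permutation p of 0.1, the smallest that 3 against 3 samples allow, and 0.133 adjusted over the 4 ratios. Fos was already seen to be higher, and Fosl1 and Fosl2 lower, in every diseased sample than in every un-diseased one. The separation and the p-value of both ratios thus followed from the choice and add no support. Jun over Junb was 0.716, 0.611 and 0.68 in diseased samples, against 0.61, 0.368 and 0.326 in un-diseased samples. Its log2 difference was 0.67 with the same exact p values, but the separation rested on 0.611 against 0.61. Jun and Junb each overlapped between groups by CPM. This ratio too was chosen after the values were seen, so its p-value adds no support. The sum of Fos genes over that of Jun genes differed by 0.11 on the log2 scale (exact permutation p = 0.4).

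**Figure D4:**
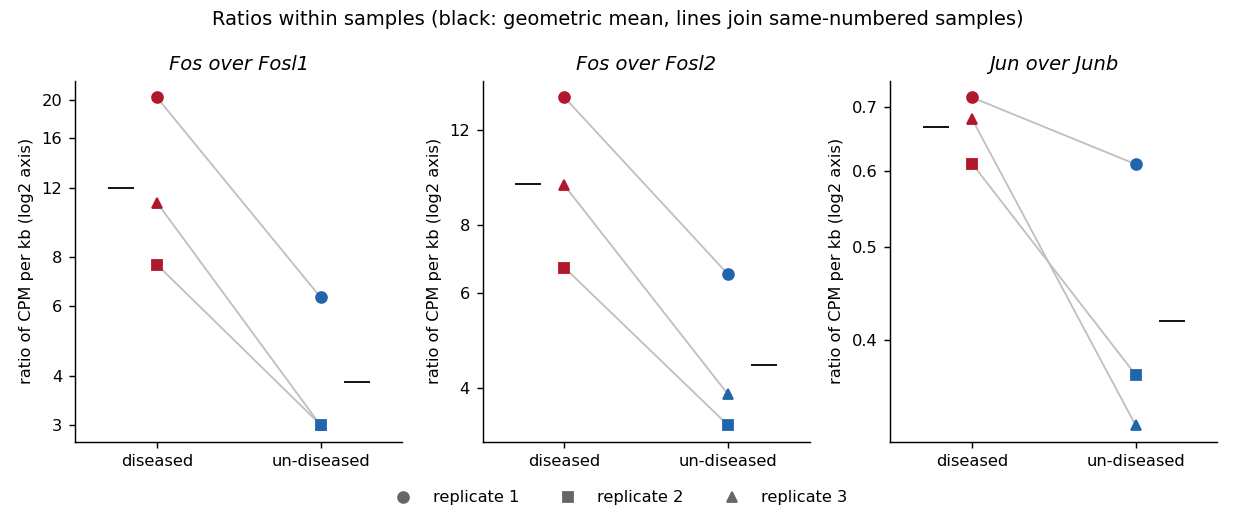
Ratios of CPM per kilobase within each sample on a log2 axis, with lines between samples of the same number and black marks at the geometric means. In all 3 panels each diseased sample is above the un-diseased sample of its number; the groups nearly touch for Jun over Junb, at 0.611 and 0.61.

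Pairs also differed from each other. In both groups replicate 1 had the highest Fos and the lowest Fosl1 and Fosl2 of its group, so that within each group the sample with the most Fos had the least Fosl1 and Fosl2. Such orders were common. Replicate 1 was highest in both groups for 1 of the 8 members, against 19.2% of all tested genes. It was lowest in both for 2 of the 8, against 21.8% of all tested genes. Of the other tested genes the profile most like that of Fos over the 6 samples was 1110038F14Rik, with a root mean square difference of 0.059 between the log2 CPM profiles, each centred on its own mean. Def6 (0.060), Srbd1 (0.064), Natd1 (0.065) and Pbx2 (0.066) followed among 10340 genes ranked. For Jun they were Tepsin (0.075), Nynrin (0.086), Zfp983 (0.094), the MAP kinase kinase kinase gene Map3k11 (0.098) and Pml (0.102). Among the members themselves Fosb and Jund were closest (0.100), Fos and Jun stood at 0.209, Fosl1 and Fosl2 at 0.299, and Fos and Fosl1 were farthest apart (0.981).

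Other leucine zipper proteins share AP-1 or related sites. Of 10 tested, 0 passed by edgeR without the block (3.73% of all genes did), and with it 0 rose and 4 fell, Maff, Mafg, Mafk and Jdp2, where 10.5% of all tested genes rose and 13.3% fell; members called only with the block are named here and below after their values were seen. Maff, a small Maf protein, had 86.1, 201 and 151 CPM in diseased samples, against 267, 385 and 309 CPM in un-diseased samples. The groups did not overlap, and the log2 fold change was -1.13 (SE 0.30, adjusted p = 0.0759 by edgeR) and -1.20 with the block (adjusted p = 0.00245). The list's median log2 fold change was -0.14.

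Upstream, MAP kinases carry the signal to the factors that sit on early gene promoters. Of 24 tested kinases of this route 0 passed by edgeR, and 0 rose and 6 fell with the block, at a median log2 fold change of -0.12. The 6 of 24 are close to the 23.9% of all tested genes called with the block in either direction. All 6 fell, however, where 13.3% of all tested genes fell and 10.5% rose. Rps6ka3, the kinase RSK2, had 139, 180.4 and 181 CPM in diseased samples, against 191, 253 and 252 CPM in un-diseased ones (log2 fold change -0.48, adjusted p = 0.124 by edgeR, 0.0115 with the block and 0.0598 with the block without pair 3). Of 15 factors that act at AP-1 gene promoters, 1 rose and 0 fell by edgeR, and 1 rose and 6 fell with the block (median -0.25), where 10.5% of all tested genes rose and 13.3% fell. The risen one was Elk3, an Ets factor that binds with serum response factor, with 53.2, 60.6 and 56.8 CPM in diseased samples, against 38.2, 37.1 and 38.7 CPM in un-diseased samples. Its log2 fold change was 0.58 (SE 0.09, adjusted p = 0.0267 by edgeR), and leaving out any single sample but un-diseased replicate 1 ended the call, at an adjusted p of 0.0525 to 0.132. Srf, serum response factor itself, had 38.7, 53.7 and 45.9 CPM in diseased samples, against 58, 73.6 and 64.2 CPM in un-diseased samples, and fell with the block (log2 fold change -0.51, adjusted p = 0.00759 by edgeR), though not without pair 3 (0.0504).

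MAP kinase phosphatases and Sprouty and Spred proteins damp the same route. Of 17 tested, 0 passed by edgeR, and with the block 2 rose and 5 fell (median without the block -0.30), where 10.5% of all tested genes rose and 13.3% fell. Dusp1, an early gene that inactivates p38 and JNK, had 598, 583 and 609 CPM in diseased samples, against 416, 382 and 485 CPM in un-diseased samples. The groups did not overlap, and the log2 fold change was 0.48 (SE 0.13, adjusted p = 0.0872 by edgeR and 0.0237 with the block). Without pair 1, 2 or 3 the Dusp1 call with the block was lost, at adjusted p values of 0.0785, 0.109 and 0.0565 by edgeR.

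Of 20 other immediate early genes 0 passed by edgeR, and with the block 2 rose and 6 fell (median without the block -0.21), where 10.5% of all tested genes rose and 13.3% fell. Egr1, the most abundant, had 1460.5, 1381 and 1633 CPM in diseased samples, against 1803, 1204 and 1109 CPM in un-diseased ones, again with un-diseased replicate 1 on top (log2 fold change 0.12, adjusted p = 0.732 by edgeR). Klf6 and Klf2 rose with the block, at 0.43 (adjusted p = 0.0308 by edgeR) and 0.47 (0.0287). The Klf6 call was lost without any 1 pair (adjusted p 0.0911 to 0.11 by edgeR), and that of Klf2 without pair 2 (0.0999) or pair 3 (0.167). Nr4a3, Myc, Ier5, Ier3, Egr3 and Klf4 fell with it. Nr4a3, an orphan nuclear receptor, had the largest of these falls, with 92.5, 307 and 159 CPM in diseased samples, against 261, 556 and 477 CPM in un-diseased samples (log2 fold change with the block -1.31, adjusted p = 0.00231 by edgeR).

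Genes known as AP-1 targets were mostly lower with the block. Of 23 tested, 1 rose and 0 fell by edgeR, and 3 rose and 12 fell with the block, where 10.5% of all tested genes rose and 13.3% fell; the median log2 fold change was -0.64 without the block. Spp1, osteopontin, passed both tests, with 451, 541 and 385 CPM in diseased samples, against 105, 163 and 189 CPM in un-diseased samples (log2 fold change 1.59, SE 0.24, adjusted p = 0.0254 by edgeR). Here too the call was lost on leaving out any single sample but un-diseased replicate 1 (adjusted p 0.0515 to 0.116). Mmp9 and Mmp13, a gelatinase and a collagenase, rose with the block, at 1.25 (adjusted p = 0.00391 by edgeR) and 0.64 (0.0471). Mmp9 had 15.9, 47.1 and 7.82 CPM in diseased samples, against 4.9, 19.3 and 4.83 CPM in un-diseased samples, and these ranges overlapped. The Mmp13 call was lost without pair 1 (adjusted p = 0.0788 by edgeR), pair 3 (0.0714) or pair 2, where the log2 fold change was 0.34 (0.19).

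The 12 that fell with the block were Il6, Il11, Lif, Ccl2 and Areg, which encode secreted signals, Mmp10, Plau and Plaur of the proteolysis system, and Ptgs2, Cd44, Gja1 and Mt2. Plau, urokinase, had 260.1, 1740.2 and 829.5 CPM in diseased samples, against 1128, 4881 and 4614 CPM in un-diseased samples. Its groups overlapped across numbers but not within pairs, and the log2 fold change was -1.91 (SE 0.75, adjusted p = 0.153 by edgeR) and -2.03 with the block (SE 0.21, adjusted p = 0.00167). Il6, interleukin 6, had 74.1, 338 and 220.2 CPM in diseased samples, against 253, 845 and 907 CPM in un-diseased samples (log2 fold change with the block -1.71, adjusted p = 0.00115 by edgeR). Ptgs2, the inducible prostaglandin synthase, had 244, 1445 and 670.5 CPM in diseased samples, against 458, 2475 and 2001 CPM in un-diseased samples (log2 fold change with the block -1.09, adjusted p = 0.00593 by edgeR). Replicate 1 was the lowest of its group in both groups for 17 of the 23 targets, as it was for Fosl1 and Fosl2, and for 21.8% of all tested genes.

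**Figure D5:**
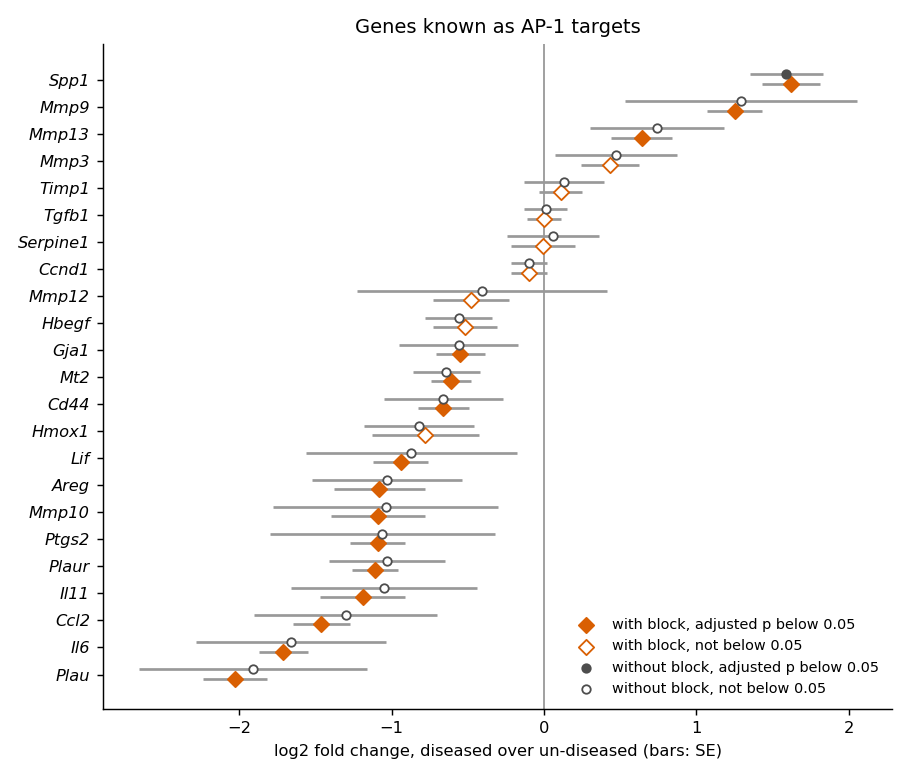
Log2 fold change with SE of 23 genes known as AP-1 targets, diseased over un-diseased, with the replicate block (diamonds) and without it (circles); filled symbols have an adjusted p below 0.05. Only Spp1 is filled without the block, while 15 are with it, 12 of them below 0.

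The samples were bulk RNA, so fewer cells of a type and less RNA per cell cannot be told apart. The marker counts below stand beside 3.73% of all tested genes passing by edgeR without the block. With the block 10.5% of all tested genes rose and 13.3% fell. Fibroblast markers were abundant in all samples, at a summed 44926 to 64511 CPM in diseased samples, against 36910.5 to 52042 CPM in un-diseased ones, and 7 tested gave 0 calls by edgeR and 2 higher with the block, Pdgfrb and Thy1. Of 6 tendon and enthesis markers 2 rose by edgeR, Thbs4 (log2 fold change 1.16, adjusted p = 0.0357) and Fmod (1.02, adjusted p = 0.0392), and 4 rose with the block, Scx and Mkx being the others. Without the block, 0 genes of any list passed as higher on leaving out a single sample other than un-diseased replicate 1. Every one of 15 markers of macrophages and monocytes was above 0 on the log2 fold scale (median 1.29); 0 passed by edgeR, all 15 rose with the block, and their sum was 375, 548 and 207 CPM in diseased samples, against 116, 264 and 44.7 CPM in un-diseased ones. Neutrophil markers summed to 52.4 to 139 CPM in diseased samples, against 4.46 to 120.3 CPM in un-diseased ones, with 0 of 6 called by edgeR and 3 higher with the block. Endothelial markers summed to 48.6 to 65.7 CPM in diseased samples, against 58.1 to 83.5 CPM in un-diseased ones, and 1 of 7, Erg, rose by edgeR (1.43, adjusted p = 0.0254), while with the block 3 rose (Erg, Tie1 and Tek) and 1 fell (Egfl7). Pericyte, T cell, Schwann cell, skeletal muscle, chondrocyte and osteoclast markers had 0 calls by edgeR among 6, 5, 2, 1, 5 and 2 tested, and with the block 1 pericyte and 1 T cell marker fell. All 17419 genes of the deposited data had at least 1 count, so no listed marker among them could be at 0 in every sample. Trac, a T cell marker, and Foxd3, a Schwann cell marker, were listed but absent from those genes. The part of these cells in the values of the AP-1 genes and of the listed targets, Mmp9 among them, was not tested.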

How the data were processed

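The members and all gene lists were chosen with earlier results of these data known. Estimated counts per gene and sample were made by the authors and deposited as 1 table; the submitters' processing notes name GRCm38, RSEM 1.3.1, HISAT2 2.0.4 and DESeq2 1.4.5, with no role or order given. Of the values 9.61% were not whole, and all were rounded. The authors' deposited log2 ratio (un-diseased over diseased), p-value and q-value per gene served only for comparison. Totals were 16720605 to 18290870 counts, and 3 counts, the limit that a count of 0 allows, were worth 0.147 to 0.188 CPM, for counting error only.

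Genes were kept with filterByExpr (minimum count 10), which left 13264, scaled with TMM and compared by edgeR 4.0.16 (R 4.3.3) quasi-likelihood tests with Benjamini-Hochberg adjustment over all tested genes at 0.05. Log2 CPM for single pairs and profiles used a prior count of 2. Over these genes the deviations from group means correlated at 0.487, 0.578 and 0.276 for samples numbered 1, 2 and 3 in the labels. Between samples of unlike number the correlations were -0.531 to 0.137. Deviations within a group cancel out, so positive values for like numbers push the others down, and the latter are not separate evidence of pairing. The labels state no pairing, so the numbers were taken as pairs from these correlations only and used as a block in a further test. Samples of a group differed beyond sampling noise (chi-square per gene 25.3 to 61.7). Alternatives were other scalings and filters, DESeq2 1.42.0, limma 3.58.1 voom and leaving samples out. The steps were tested on simulated counts that held no effect shared by samples of the same number. That run therefore cannot decide between the tests with and without the block.

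Named were the 8 members; up to 3 called members of a list with the smallest adjusted p or, with none, the most abundant; and the 5 genes with the profile nearest to Fos and to Jun at a mean log2 CPM of at least 2. Older symbols (Mkl1, Mkl2, Cyr61, Ctgf) were matched as Mrtfa, Mrtfb, Ccn1 and Ccn2. Positions are from RefSeq GRCm38.p6, 1-based.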

Additional observations from a re-analysis of the deposited data

How the results depend on the processing

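Fos stayed above 0 and Fosl1 and Fosl2 below 0 under every alternative run, and Jun stayed above 0; depth did not limit these genes, all far above the floor. The members called moved with the test. Higher and lower members numbered 0 and 0 without the block, 1 and 1 with DESeq2, and 1 and 2 with the replicate block. Leaving out 1 sample gave 0 to 1 higher and 0 to 1 lower, and leaving out 1 pair with the block gave 0 to 2 higher and 1 to 2 lower. Over all genes, 213 were higher and 282 lower, against 635 and 882 with DESeq2, 417 higher with upper-quartile factors, and 1397 and 1770 with the block. Leaving out 1 sample gave 2 to 354 higher and 3 to 721 lower, and leaving out pair 1, 2 or 3 with the block gave 1013, 809 and 426 higher and 1556, 1274 and 583 lower. The smallest counts, 2 and 3, came without diseased replicate 3. Of the listed genes outside the 8, 5 were higher and 0 lower, against 14 and 17 with DESeq2 and 35 and 45 with the block. There 1 was lower with upper-quartile factors, 3 with no filter beyond 1 count and 1 with limma-voom. Leaving out 1 sample gave 0 to 8 higher and 0 to 5 lower, and leaving out pair 1, 2 or 3 with the block gave 32, 28 and 22 higher and 34, 43 and 16 lower. Where the sign of a single gene turned, its adjusted p in that setting was at least 0.664. Fosb had 0.07 with upper-quartile factors, -0.05 to 0.06 without 1 sample and 0.07 with the block without pair 1. Jund had -0.04 to 0.15 without 1 sample and -0.11 with the block without pair 3. Atf3 had -0.34 to 0.02 without 1 sample and 0.01 with the block without pair 1. Without 1 sample Cspg4 had -0.06 to 0.22, Egr1 -0.01 to 0.36 and S100a9 -0.01 to 2.65. With the block Cspg4 had -0.01 without pair 2, Egr1 -0.05 without pair 3 and Hspa8 0.08 without pair 1. The cause was not tested.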
